A study of Mus musculus with 6 samples.

Results

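Interferon-stimulated genes other than the guanylate-binding proteins were followed in macrophages that had been grown from the bone marrow of mice. A list of 40 genes with known roles in this response, put together with earlier results of these data known, was matched to probe sets by gene symbol, and 39 of the 40 were found among the 25206 probe sets of the array. Ifi44 was not analysed here. On 3 arrays the cells had been given 0.3 micromole of JG-98, which inhibits the Hsp70 family of chaperones, for 16 hours, and on the other 3 the macrophages were controls with no treatment. The labels name no strain, age, volume or vehicle, nor an animal or culture for each replicate, so the spread behind every p-value is that of these samples and may be technical. In bulk RNA, fewer cells of a type and less RNA per cell cannot be told apart.

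Interferons are secreted proteins that act through cell surface receptors and Janus kinases on STAT transcription factors. Type I interferons activate a complex of STAT proteins with Irf9, which binds the interferon-stimulated response element (ISRE), and interferon gamma activates STAT dimers that bind the gamma-activated sequence (GAS). Macrophages keep a low tonic expression of many of these genes without infection, through small amounts of interferon they make themselves. The products block viral replication, sense foreign nucleic acid, amplify the signal or attack the vacuoles of intracellular microbes.

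Markers of the labelled cell type were bright. The 8 measured macrophage markers lay between 8.35 and 12.1 on the log2 scale on JG-98 arrays. On control arrays they lay between 8.27 and 12.0, and none had an adjusted p under 0.05. Their differences were negative in 6 of 8, with a median of -0.058. At an unadjusted p under 0.05, 1 of 8 was lower, Mertk (-0.22 ± 0.067), beside 4.48% of all probe sets. Mertk and Csf1r lay wholly below the controls (8.44% of all probe sets) and Cd68 wholly above (7.12%). JG-98 replicate 3 stood apart from the other 5 arrays, which it correlated with at 0.992 to 0.993 across probe sets, and it set the first principal component (36.7% of the variance). Values with and without that array are therefore given for the results that rest on it. Marker lists of 9 other cell types were measured too. Among 5 B cell markers, summed linear signal ranged from 283 to 308 on JG-98 arrays and from 442 to 466 on control arrays. Most of that sum was Ighm, the immunoglobulin heavy chain gene, at mean log2 levels of 8.03 with JG-98 and 8.71 in controls. The Ighm difference was -0.68 (limma adjusted p = 0.13), without overlap. Ms4a1 (CD20) differed by 0.28 ± 0.067 (limma adjusted p = 0.36), without overlap. Its levels were 1.93 to 2.02 on JG-98 arrays and 1.66 to 1.76 on control arrays. The other 3, Pax5, Cd79a and Cd79b, differed by -0.16, -0.11 and 0.092, with overlap. Among 7 plasmacytoid dendritic cell markers, which mark a cell type known for interferon production, the sum was 136 to 143 on JG-98 arrays and 86.4 to 98.1 on control arrays. That followed Cox6a2, which rose by 1.39 (limma adjusted p = 0.015), while the other 6 overlapped, from 0.29 for the receptor gene Siglech to -0.12 for Klk1 and Spib, and 3 of the 7 were negative. The part of these markers in the results was not tested.

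Most interferon-stimulated genes had a small negative difference with JG-98, and no member passed the test over all probe sets. Of the 39 measured members, 0 had an adjusted p under 0.05 in limma, where 0.00793% of all probe sets were called lower and 0.0317% higher. The smallest adjusted p was 0.22, for Ifi47. At an unadjusted p under 0.05, 11 members were lower and 0 higher, which is 28.2% of the members beside 4.48% of all probe sets for lower and 3.84% for higher. The difference was negative in 32 of 39 members, where it was negative in 49.7% of probe sets. The median member differed by -0.14 on the log2 scale, with members from -0.59 (Rtp4) to 0.24 (Isg20), and the median of all probe sets was 0.00080.

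In 11 members the highest JG-98 value lay below the lowest control value, against 8.44% of all probe sets, and in 2 members, Isg20 and Mx1, they lay above, against 7.12%. The count of members lower at an unadjusted p under 0.05 was 10 without JG-98 replicate 3 (6.24% of probe sets; 5.05% were higher) and 12 without control replicate 3 (3.42%). It was 5 when replicate 1 or 2 of the controls or replicate 1 of JG-98 was left out (3.33%, 3.19% and 3.40% of probe sets), and 6 without JG-98 replicate 2 (4.09%). The members without overlap numbered 17 without JG-98 replicate 3, when 16.7% of probe sets did not overlap downward and 13.7% did not overlap upward. Of all probe sets 55.1% were then negative, 0.00397% were called lower and 0.0159% higher, and 0 members were called. The count was 17 too without JG-98 replicate 2 or control replicate 3, when 13% and 12.7% of probe sets did not overlap downward. Leaving out some single array moved the difference of 29 members by over 1.5 times or turned its sign. The other 10 were Ifi47, Irgm1, Irgm2, Dhx58, Ddx58, Irf1, Irf7, Irf9, Oasl2 and Parp14.

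**Figure D1:**
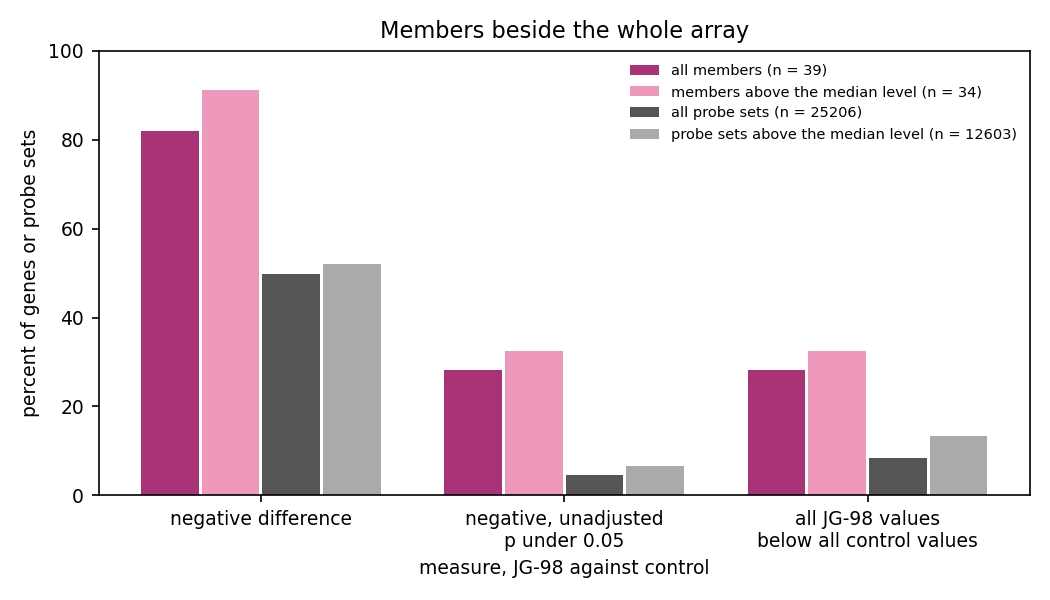
Share of genes or probe sets, in percent, with a negative JG-98 minus control difference, with a negative difference at an unadjusted p under 0.05, and with no overlap, JG-98 below control. The bars for the 39 members (82.1%, 28.2% and 28.2%) stand above those for all 25206 probe sets (49.7%, 4.48% and 8.44%), and the pale bars restrict each to levels above the median probe set.

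Members were brighter than the array as a whole. The level of the median probe set was 4.12, and 34 of 39 members lay above it. Among those 34 the median difference was -0.21, 31 were negative, 11 were lower at an unadjusted p under 0.05 and 11 did not overlap. Among all probe sets of that brighter range, the median difference was -0.0069, 52% were negative, 6.54% were lower at an unadjusted p under 0.05 and 13.3% lay wholly below the controls, with 10.2% wholly above. The called shares there were 0.0159% lower and 0.0635% higher, and 5.04% were higher at an unadjusted p under 0.05. The 5 members at or below the median level, Isg15, Oasl1, Mx1, Mx2 and Iigp1, had differences from -0.0069 to 0.21. At such levels background cannot be told from signal, as no detection call was used here. The median level is not a detection limit either. The 5 endothelial markers, for example, reached 5.81 on JG-98 arrays and 5.75 on control arrays.

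**Figure D2:**
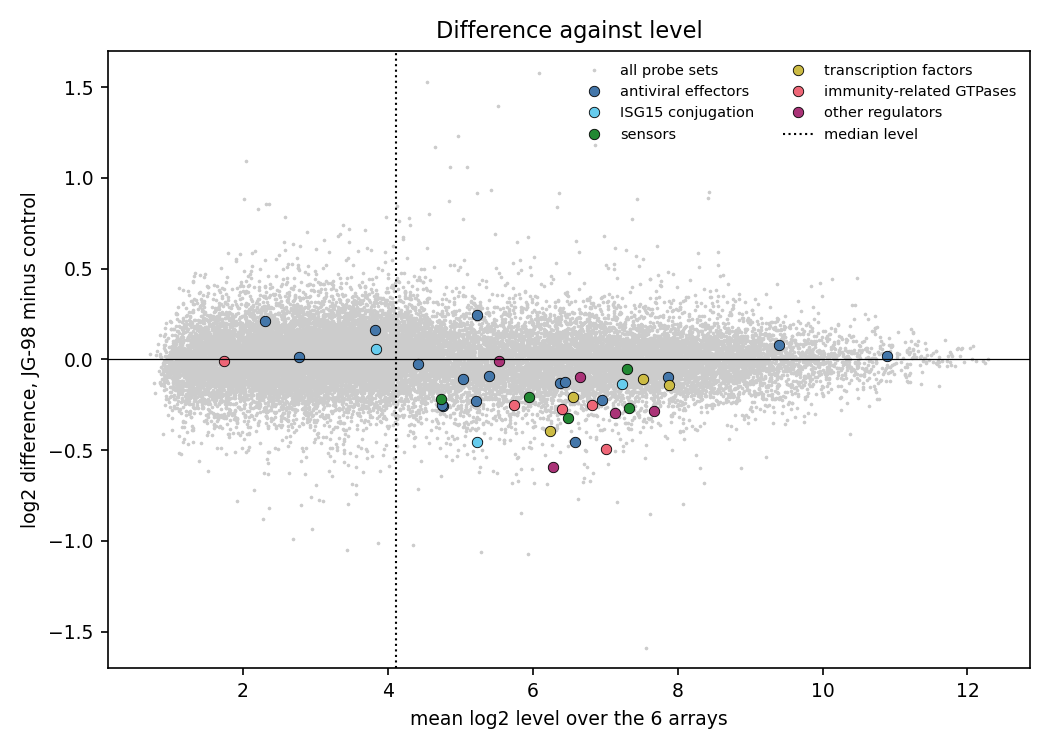
Log2 difference (JG-98 minus control) against the mean log2 level over the 6 arrays, for all probe sets (grey) and for the 39 members coloured by role; the dotted line marks the median level of 4.12. Of the 34 members right of that line 31 lie below zero, and the brightest members, Bst2 and Ifitm3, lie close to zero.

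Promoter windows from RefSeq (build GRCm38.p6, 250 bases before to 50 bases after the annotated start) were matched for 29 of the 39 members. They were searched on both strands for the ISRE core GAAANNGAAA (TTTCNNTTTC on the other strand) and for GAS, TTCNNNGAA, which reads the same on both strands. Overlapping matches were kept. The ISRE core was in 17 of 29 members (58.6%) and in 3.99% of all 27025 genes with a window. GAS was in 9 of 29 members (31.0%) and in 9.55% of all genes with a window. The windows below are the 4 with the smallest p among members with a window, and, for contrast, the 2 members with the largest p whose window holds the ISRE core. A gene with several windows counted as holding a motif if any of them did. Irf1 had 2 windows, and the one with the most motif matches is printed. Capitals mark motif matches, and base 1 is the annotated start.
Ifi47, chr11:49076337-49076636, plus strand: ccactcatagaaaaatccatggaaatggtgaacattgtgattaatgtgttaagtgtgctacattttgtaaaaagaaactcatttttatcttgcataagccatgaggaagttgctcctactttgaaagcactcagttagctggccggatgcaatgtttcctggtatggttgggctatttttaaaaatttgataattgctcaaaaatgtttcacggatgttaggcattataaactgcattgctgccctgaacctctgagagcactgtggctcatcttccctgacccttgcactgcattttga
Ddx58, chr4:40239776-40240075, minus strand: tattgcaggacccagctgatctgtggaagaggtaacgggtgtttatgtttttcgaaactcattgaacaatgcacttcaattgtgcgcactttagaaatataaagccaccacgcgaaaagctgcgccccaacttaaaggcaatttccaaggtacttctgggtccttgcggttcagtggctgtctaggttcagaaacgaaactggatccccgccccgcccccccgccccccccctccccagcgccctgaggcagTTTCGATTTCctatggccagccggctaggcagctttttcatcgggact
Irgm2, chr11:58214727-58215026, plus strand: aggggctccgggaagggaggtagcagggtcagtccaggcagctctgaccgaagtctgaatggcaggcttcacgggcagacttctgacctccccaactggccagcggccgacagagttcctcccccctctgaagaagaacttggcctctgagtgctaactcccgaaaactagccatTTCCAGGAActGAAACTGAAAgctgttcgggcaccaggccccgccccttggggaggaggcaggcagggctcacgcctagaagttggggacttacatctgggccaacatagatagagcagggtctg
Irf1, chr11:53769764-53770063, plus strand: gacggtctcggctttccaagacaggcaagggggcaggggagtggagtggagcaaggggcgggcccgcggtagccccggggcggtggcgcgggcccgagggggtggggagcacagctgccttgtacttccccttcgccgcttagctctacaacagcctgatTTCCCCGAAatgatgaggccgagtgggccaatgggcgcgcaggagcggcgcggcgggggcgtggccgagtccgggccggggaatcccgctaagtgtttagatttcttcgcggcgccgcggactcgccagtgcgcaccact
Ifit3, chr19:34583279-34583578, plus strand: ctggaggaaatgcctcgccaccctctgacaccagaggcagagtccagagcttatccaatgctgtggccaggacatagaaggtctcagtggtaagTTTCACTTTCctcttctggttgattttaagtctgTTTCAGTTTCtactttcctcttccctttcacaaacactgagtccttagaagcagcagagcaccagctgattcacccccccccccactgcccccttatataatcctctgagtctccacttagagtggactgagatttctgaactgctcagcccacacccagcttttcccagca
Ifitm3, chr7:141010695-141010994, minus strand: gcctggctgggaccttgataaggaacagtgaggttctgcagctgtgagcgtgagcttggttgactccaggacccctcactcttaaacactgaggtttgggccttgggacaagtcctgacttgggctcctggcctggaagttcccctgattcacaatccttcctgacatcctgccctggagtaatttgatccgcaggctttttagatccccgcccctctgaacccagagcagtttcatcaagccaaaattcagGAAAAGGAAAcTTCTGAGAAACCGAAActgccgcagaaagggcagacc
The Irgm2 window held a GAS at bases -75 to -67 followed by an ISRE core at -64 to -55. The printed Irf1 window held a GAS at -90 to -82. Ddx58 had an ISRE core just after its start, at 3 to 12, and neither motif was in the Ifi47 window. Ifit3 carried a pair of ISRE cores, at -156 to -147 and -122 to -113. In Ifitm3, ISRE cores at 3 to 12 and at 20 to 29 flanked a GAS at 14 to 22, which shared bases with the second of them. Of the 17 members with an ISRE core, 3 stood wholly below the controls with JG-98, with a median difference of -0.12. Of the 12 members without one in the window, 6 did, with a median difference of -0.17. For GAS, the counts were 3 of 9 members with the motif and 6 of 20 without it. Over all probe sets, 8.44% stood wholly below the controls. A motif match describes the window only.

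The immunity-related GTPases, which act on the vacuoles around intracellular bacteria and parasites, all had negative differences (5 of 5, median -0.25). At an unadjusted p under 0.05, 3 of 5 were lower, beside 4.48% of all probe sets. Ifi47 had log2 values of 6.86, 6.63 and 6.79 on the JG-98 arrays, against 7.31, 7.23 and 7.22 on the control arrays. Every JG-98 value lay below every control value, and the lowest control was 0.36 above the highest JG-98 array. The difference was -0.49 ± 0.081 (moderated SE, n = 3 per group), which is 1.41-fold lower (limma adjusted p = 0.22), and -0.51 without JG-98 replicate 3. Ifi47 passed the threshold when an intensity trend was added to the fit (adjusted p = 0.016), when dim probe sets were left out (adjusted p = 0.0496 above the median level) and when only the brightest 25% of probe sets were tested (adjusted p = 0.0055). Calls were more common in those settings over the array as a whole, with 0.504%, 0.325% and 4.74% of the probe sets tested called lower. With any single array left out its adjusted p was 0.29 to 0.72.

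Irgm2, a regulatory GTPase whose window joins a GAS and an ISRE core, was at 6.22, 6.22 and 6.36 with JG-98, against 6.51, 6.67 and 6.44 in controls. The groups did not overlap, with the highest JG-98 value on replicate 3, and the difference was -0.27 ± 0.086 (limma adjusted p = 0.49). Irgm1, a relative that controls the effector GTPases, was at 6.64, 6.86 and 6.58 with JG-98, against 7.04, 6.84 and 6.95 in controls. JG-98 replicate 2 overlapped control replicate 2 there, and the difference was -0.25 ± 0.098 (limma adjusted p = 0.57). Igtp, which neighbours Irgm2 on chromosome 11, was at 5.71, 5.81 and 5.35 with JG-98, against 6.11, 5.94 and 5.57 in controls, with overlap. Its difference was -0.25 over all arrays. Omitting control replicate 3 gave -0.40 and omitting JG-98 replicate 3 gave -0.11. Iigp1, an effector of the family, had a mean of 1.74 ± 0.12 with JG-98 and 1.75 ± 0.35 in controls (SD, n = 3 each), a level near the floor of the array. Whether sequence-related GTPases share probes here was not checked, so their values may not be fully independent.

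The nucleic acid sensors also had 5 of 5 negative differences (median -0.22). At an unadjusted p under 0.05, 2 of 5 were lower, beside 4.48% of all probe sets. Dhx58 (LGP2), a helicase that modulates the RNA sensors, was at 6.17, 6.42 and 6.38 with JG-98, against 6.64, 6.60 and 6.70 in controls. The groups did not overlap, and the difference was -0.32 ± 0.087 (limma adjusted p = 0.41). Ddx58 (RIG-I), the sensor of viral RNA ends, was at 7.16, 7.12 and 7.31 with JG-98, against 7.52, 7.48 and 7.39 in controls. These groups did not overlap either. The difference was -0.27 ± 0.079 (limma adjusted p = 0.45), and the adjusted p was 0.036 among the brightest 25% of probe sets, where 4.74% were called lower.

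Zbp1, which senses left-handed nucleic acid and can start necroptosis, was at 4.43, 4.50 and 4.94 with JG-98, against 4.96, 4.90 and 4.67 in controls. JG-98 replicate 3 reached the control range, so the groups overlapped (-0.22 ± 0.15), and the difference was -0.38 without that array and -0.12 without JG-98 replicate 1. Ifi204, a DNA-binding member of the PYHIN family, had the opposite array pattern, at 6.09, 6.15 and 5.28 with JG-98, against 6.09, 5.93 and 6.13 in controls. Its low value was on JG-98 replicate 3, and the difference of -0.21 ± 0.23 turned positive without that array, at 0.069 ± 0.086. Ifih1 (MDA5), the sensor of long double-stranded RNA, averaged 7.27 ± 0.042 with JG-98 and 7.33 ± 0.042 in controls (SD, n = 3 each), with a difference of -0.054 ± 0.064.

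All 4 transcription factors had negative differences (median -0.17), and in 3 of them the groups did not overlap. Downward non-overlap was found in 8.44% of all probe sets and in 13.3% of those above the median level. Irf1, which is induced by interferon gamma and itself binds interferon response elements, was at 6.49, 6.38 and 6.50 with JG-98, against 6.69, 6.65 and 6.66 in controls. The control arrays lay close together, all JG-98 values were below them, and the difference was -0.21 ± 0.066 (limma adjusted p = 0.49). Irf7, the factor that amplifies type I interferon production, was at 5.79, 5.99 and 6.35 with JG-98, against 6.38, 6.63 and 6.30 in controls. JG-98 replicate 3 lay inside the control range. The Irf7 difference was -0.39 ± 0.16 (limma adjusted p = 0.59), and -0.55 ± 0.12 without that array (limma adjusted p = 0.30).

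Stat2 and Irf9 encode components of the complex that binds ISREs. Stat2 was at 7.82, 7.78 and 7.82 with JG-98, against 7.87, 8.06 and 7.90 in controls. Irf9 was at 7.50, 7.40 and 7.49 with JG-98, against 7.55, 7.60 and 7.57 in controls. Neither pair of groups overlapped, but the gaps were small, with differences of -0.14 ± 0.074 for Stat2 and -0.11 ± 0.064 for Irf9 (limma adjusted p = 0.69 and 0.72). Without control replicate 2 the Stat2 difference was -0.083.

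**Figure D3:**
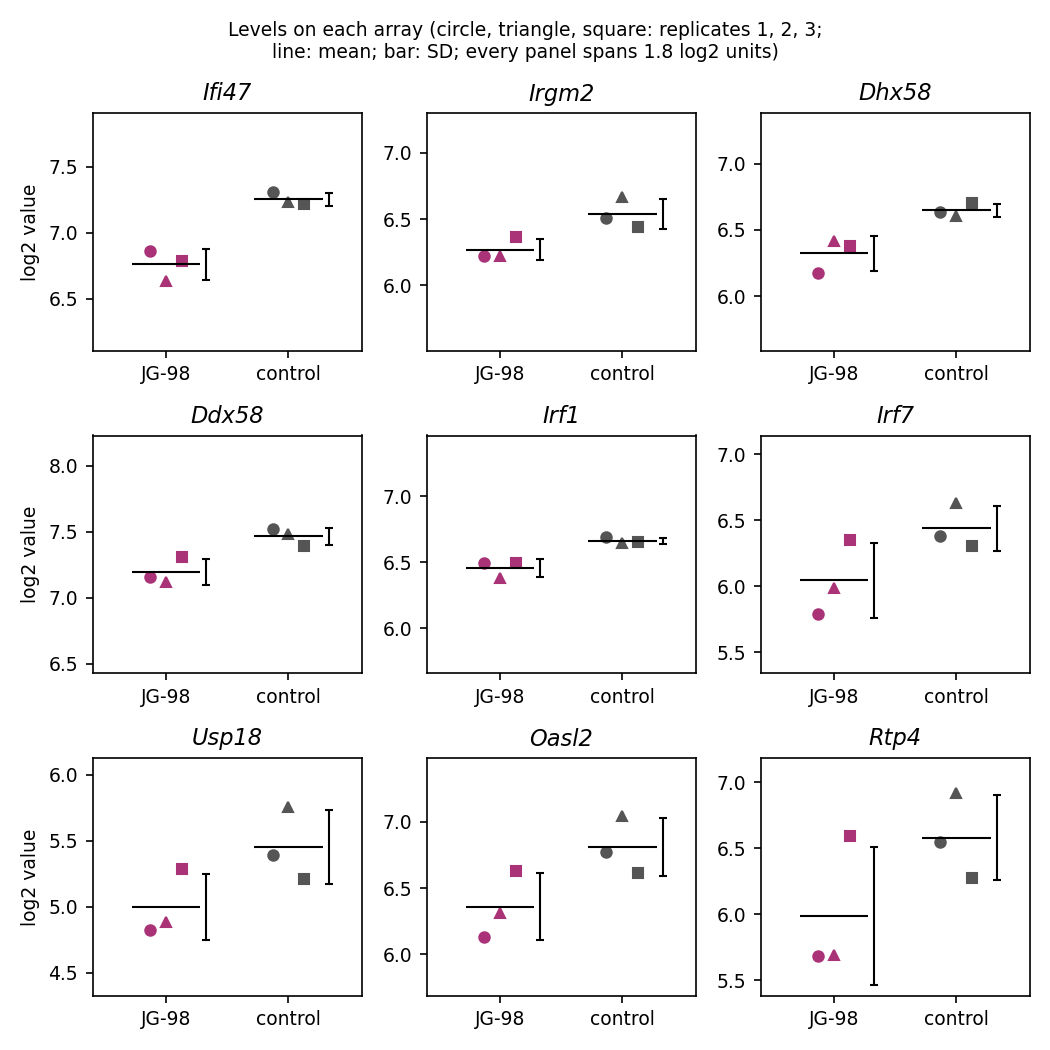
Log2 values on each array for 9 members, JG-98 on the left and control on the right of each panel, with replicates 1, 2 and 3 as circle, triangle and square, the mean as a line and the SD as a bar (n = 3 each). In Ifi47, Irgm2, Dhx58, Ddx58 and Irf1 the groups do not overlap, whereas in Irf7, Usp18, Oasl2 and Rtp4 the JG-98 replicate 3 square lies above the control replicate 3 square.

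Genes of the ISG15 system, which attaches a ubiquitin-like protein to viral and cellular targets, differed among themselves. Usp18, which removes ISG15 and restrains the type I interferon receptor, was at 4.83, 4.88 and 5.29 with JG-98, against 5.39, 5.76 and 5.21 in controls. Replicate 3 of JG-98 exceeded replicate 3 of the controls, and the difference was -0.45 ± 0.18 (limma adjusted p = 0.58), or -0.60 with that JG-98 array omitted and -0.30 with control replicate 2 omitted. Herc6, the ligase for ISG15 in mice, was at 7.23, 7.22 and 7.03 with JG-98, against 7.25, 7.31 and 7.34 in controls. The groups stood apart by a hair on replicate 1, and the difference was -0.14 ± 0.080 (limma adjusted p = 0.72), or -0.073 without JG-98 replicate 3. Isg15 itself was dim, at 3.77, 3.70 and 4.12 with JG-98, against 3.86, 3.64 and 3.91 in controls, and overlapped throughout (0.058 ± 0.13). Its sign changed when JG-98 replicate 3 (-0.069) or control replicate 2 (-0.024) was omitted.

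The antiviral effectors were mixed, with 11 of 17 negative and a median of -0.10. At an unadjusted p under 0.05, 2 of 17 were lower, beside 4.48% of all probe sets. Of the positive effectors, Mx1, Mx2 and Oasl1 lay at or below the median level. There 4 of 5 members were positive, beside 3 of 34 above it, so role and level were not separated. Oasl2, of the oligoadenylate synthetase-like family, was at 6.13, 6.31 and 6.63 with JG-98, against 6.78, 7.05 and 6.61 in controls. JG-98 replicate 3 again met the lowest control, and the difference was -0.46 ± 0.16 (limma adjusted p = 0.52). Without that JG-98 array the Oasl2 difference was -0.59 ± 0.14 (limma adjusted p = 0.33). The neighbour of Oasl2 on chromosome 5, Oasl1, which in mice limits the translation of Irf7, differed by 0.16 ± 0.094. The synthetases proper, whose product activates the RNA-cleaving enzyme RNase L, ranged from -0.22 ± 0.14 in Oas2 to -0.092 ± 0.085 in Oas1a, with Oas3 and Oas1g between them, and the groups overlapped in all 4.

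In the Ifit cluster of chromosome 19, whose proteins bind viral RNA and block its translation, Ifit2 was at 4.44, 4.79 and 4.67 with JG-98, against 4.99, 4.86 and 4.83 in controls. Its groups did not overlap (-0.26 ± 0.11, limma adjusted p = 0.59), and the difference was -0.16 without JG-98 replicate 1. Ifit1 was at 4.49, 4.79 and 4.59 with JG-98, against 5.10, 5.11 and 4.42 in controls, where the low control replicate 3 gave the overlap (-0.25 ± 0.20). The Ifit1 difference was -0.48 without that array, and -0.14 without control replicate 1 or 2. Ifit3, with its pair of ISRE cores, differed by -0.028 ± 0.10, with a positive sign without control replicate 2 (0.024) or JG-98 replicate 2 (0.048).

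Cmpk2, a mitochondrial nucleotide kinase, was at 5.15, 5.04 and 5.11 with JG-98, against 5.53, 5.25 and 5.21 in controls, without overlap (-0.23 ± 0.10, and -0.13 without control replicate 1). Its neighbour Rsad2 (viperin), which makes a chain-terminating nucleotide, differed by -0.13 ± 0.11. Isg20, an exonuclease that degrades viral RNA, had the highest positive difference of the members at 0.24 ± 0.11, with 5.41, 5.31 and 5.36 in JG-98 cells, against 5.20, 4.88 and 5.26 in controls (limma adjusted p = 0.64). Without control replicate 2 it was 0.13, below the 0.21 of Mx1. Mx1, a GTPase that blocks influenza virus, was near the floor of the array, at 2.36, 2.36 and 2.52 with JG-98, against 2.35, 2.19 and 2.06 in controls (0.21 ± 0.098, and 0.14 without control replicate 3). The membrane proteins Ifitm2, Ifitm3 and Bst2 (tetherin), which stop virus entry or release, were bright, and their differences were -0.10, 0.019 and 0.078. Omitting JG-98 replicate 3 gave -0.036 for Ifitm2. After median centring of the arrays, Ifitm3 and Mx2 changed sign, at -0.00065 and -0.0083.

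**Figure D4:**
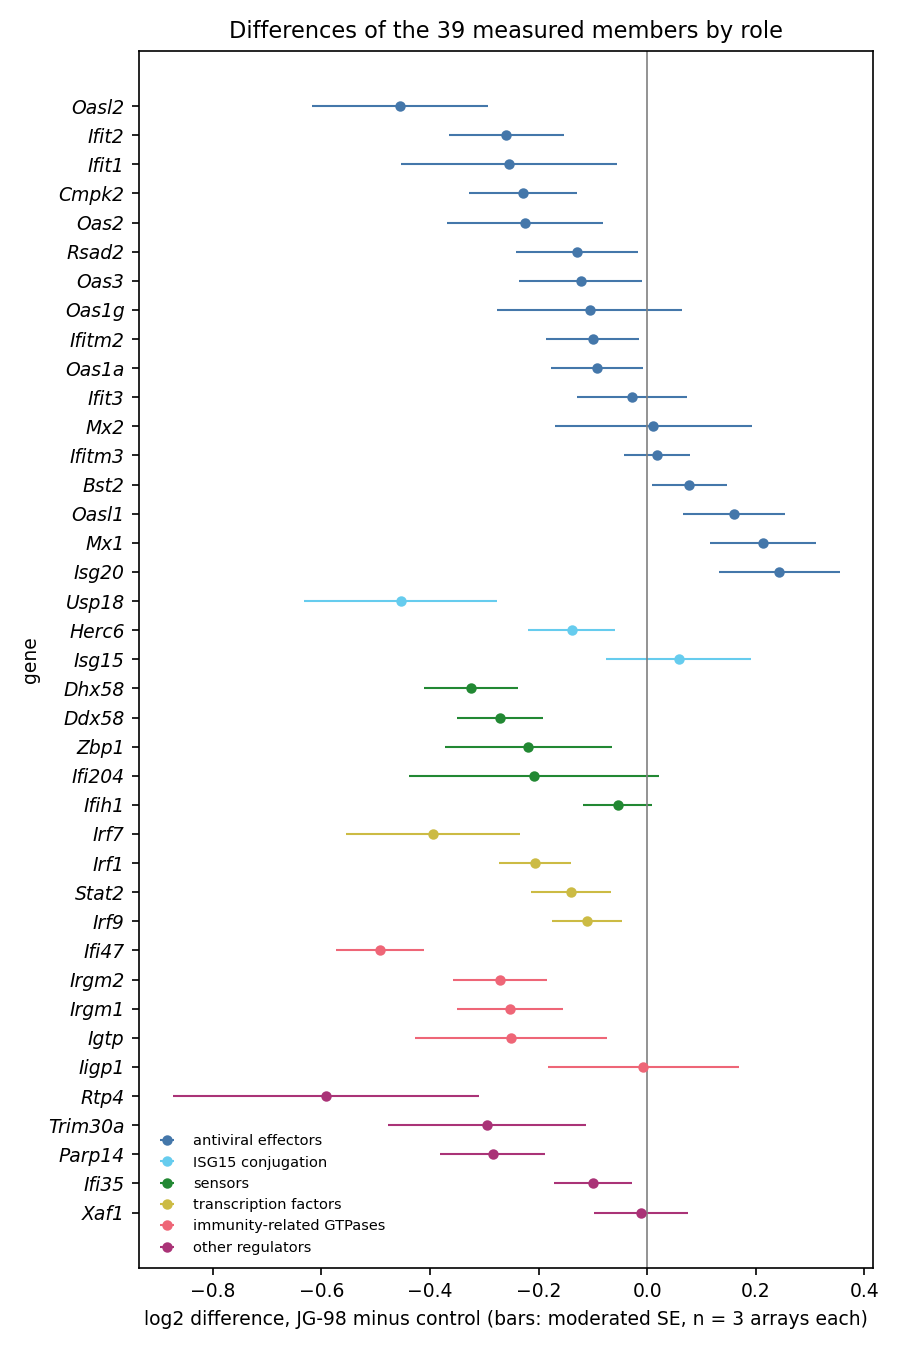
Log2 difference, JG-98 minus control, for each of the 39 measured members, ordered within roles; bars are moderated standard errors (n = 3 arrays per group). Sensors, transcription factors, GTPases and other regulators all lie at or below zero, and 6 of 17 antiviral effectors lie above it. Of those 6, Mx1, Mx2 and Oasl1 are at or below the median level of all probe sets.

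Of 5 other regulators, all had negative differences (median -0.28), and 1 was lower at an unadjusted p under 0.05 (4.48% of all probe sets). That was Parp14, an ADP-ribosyltransferase, at 7.58, 7.51 and 7.51 with JG-98, against 7.76, 8.003 and 7.68 in controls. Its groups did not overlap (-0.28 ± 0.096, limma adjusted p = 0.51). Rtp4, a chaperone of membrane receptors, had the lowest difference of all members, at 5.68, 5.69 and 6.59 with JG-98, against 6.55, 6.92 and 6.27 in controls. JG-98 replicates 1 and 2 were below every control and replicate 3 was above the first and the last of them, so the difference of -0.59 ± 0.28 became -0.89 ± 0.19 without that array (limma adjusted p = 0.66 and 0.30). Trim30a, an inhibitor of Toll-like receptor signalling, was at 7.03, 7.34 and 6.60 with JG-98, against 7.40, 7.19 and 7.26 in controls, with its low value on JG-98 replicate 3. Its difference was -0.29 ± 0.18, with -0.10 ± 0.12 without that array and -0.47 without JG-98 replicate 2. Ifi35 and Xaf1 differed by -0.099 and -0.011.

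The arrays of a group thus differed from each other in these genes. Against the mean of the 3 controls, the median member was -0.17, -0.10 and -0.16 on JG-98 replicates 1, 2 and 3, where the median of all probe sets was -0.013, -0.018 and 0.027. Each control set against the other 2 gave 0.034, 0.052 and -0.093 for replicates 1, 2 and 3. The value of control replicate 3 thus came near that of JG-98 replicate 2. Control replicate 3 was the lowest control in 20 of 39 members, and without it the median member differed by -0.21. Usp18, Irf7, Oasl2 and Rtp4, chosen after their values were seen, shared one order of arrays: control replicate 2 highest and control replicate 3 lowest among the controls, and replicate 3 highest among the JG-98 arrays.

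**Figure D5:**
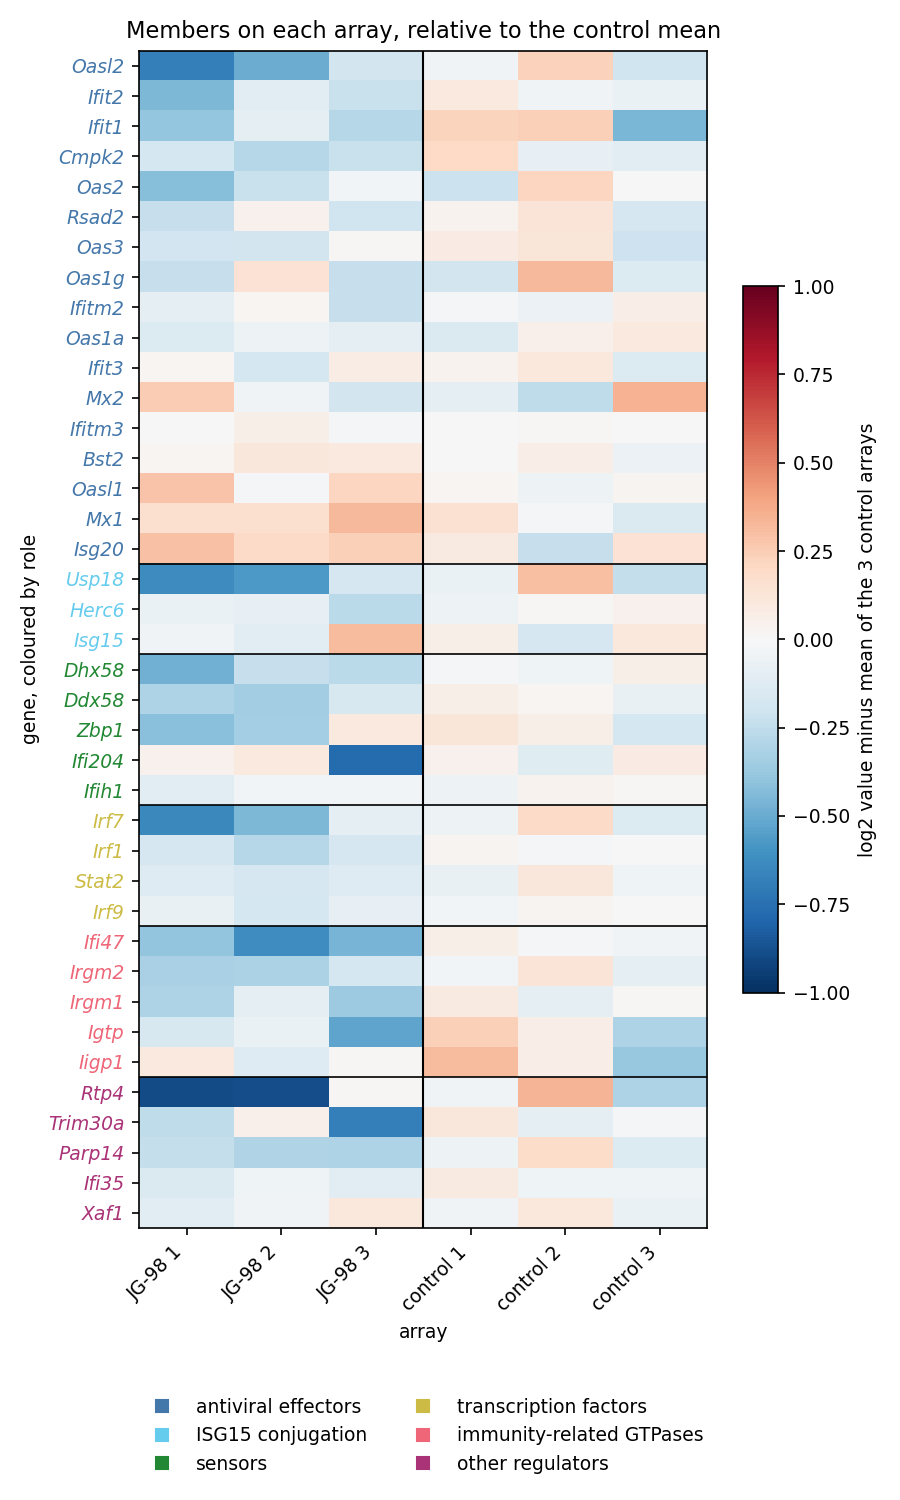
Log2 value of each of the 39 members on each array minus the mean of the 3 control arrays (blue below, red above), with JG-98 arrays left of the control arrays and genes grouped by role. Rtp4, Usp18, Irf7 and Oasl2 are dark blue on JG-98 replicates 1 and 2 and pale on replicate 3, where Ifi204 and Trim30a are darkest.

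Among upstream genes of the pathway, none of the 6 receptor genes was lower at an unadjusted p under 0.05. All 6 differences were negative (median -0.076), and 2 of the 6 genes lay wholly below the controls, beside 8.44% of all probe sets. Ifngr2, a chain of the interferon gamma receptor, differed by -0.16 ± 0.070, and the type I receptor chains Ifnar1 and Ifnar2 by -0.081 ± 0.068 and -0.0030 ± 0.061. The 4 measured signal transducers had a median of -0.040. The kinase Tyk2 (-0.15 ± 0.087) lay wholly below the controls and the kinase Jak2 (0.13 ± 0.080) wholly above. The 9 inhibitors of the pathway had a median of -0.021. Of these, 3 lay wholly below the controls, and 0 were lower at an unadjusted p under 0.05. Of 9 interferon ligand genes, Ifnb1 lay at 1.66 to 2.08 with JG-98 and 1.76 to 1.99 in controls, and 6 of the 9 differences were positive (median 0.025). Ifna9, also dim, was the 1 lower at an unadjusted p under 0.05 (-0.35 ± 0.14), and Ifnl3 (0.31 ± 0.13) lay wholly above the controls. Of 16 genes that induce interferon, the RNA receptor gene Tlr7 (-0.33 ± 0.12) and the DNA-sensing adaptor gene Tmem173 (STING, -0.21 ± 0.074) were lower at an unadjusted p under 0.05, and both stood wholly below the controls. With JG-98 replicate 3 omitted, Tlr7 differed by -0.20, Tyk2 by -0.072 and Ifnar1 by -0.040. The median of the 16 was -0.023, and 6 were positive. Over all probe sets, 4.48% were lower at an unadjusted p under 0.05, 8.44% lay wholly below the controls and 7.12% wholly above.

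A further list of 40 measured interferon-stimulated genes was, like the members, chosen with earlier results of these data known. Its differences were negative in 35 of 40, with a median of -0.12. At an unadjusted p under 0.05, 12 were lower and 1 higher. Of these 40, 18 did not overlap downward, and 0 had an adjusted p under 0.05 in limma. Over all probe sets, 49.7% were negative and 8.44% did not overlap downward. At an unadjusted p under 0.05, 4.48% of them were lower and 3.84% higher, and 0.00793% and 0.0317% were called lower and higher. Ms4a4c, a membrane protein, was dim (2.37 to 2.61 on JG-98 arrays, 3.19 to 3.54 on control arrays). Its difference was -0.93 ± 0.12 (limma adjusted p = 0.13). Whether close relatives share its probes was not checked. Slfn8 differed by -0.68 ± 0.12 (limma adjusted p = 0.24) and Ifi27l2a by -0.65 ± 0.13 (limma adjusted p = 0.29). Among 10 guanylate-binding protein genes, the other large family of interferon-induced GTPases, 8 were negative, 5 were lower at an unadjusted p under 0.05 and the median was -0.25. The lowest was Gbp7, at -1.07 ± 0.14 (limma adjusted p = 0.13). No test of a difference between these lists was run.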

How the data were processed

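The authors deposited a table of log2 values with 1 row per probe set, and it was used as it stands. The submitters' processing notes name RMA, affy and R 2.15.1 but not what each did. RMA in general corrects background, normalizes by quantiles and summarises probes, and it compresses differences of dim probe sets. The array's genome build was not given in the sources used here. Probe sets are numbered by Entrez gene. The platform annotation named 23185 of 25206, updated through RefSeq (GRCm38.p6), and the other 2021 were tested unnamed.

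Samples were grouped by title. Differences were tested with limma 3.58.1 (lmFit, eBayes, two-sided) in R 4.3.3, JG-98 minus control, with no covariate, and Benjamini-Hochberg adjustment over all 25206 probe sets at 0.05. The fit was tested on simulated data. Recovery was required there only of planted differences larger than that of any member, so it does not speak for differences of the members' size. Members, role groups and lists were chosen with earlier results of these data known, and are described by counts and medians without a test. Values on every array are given for the 3 members of each role with the smallest unadjusted p and for Isg15, Ifit1, Mx1, Irf7, Irf9, Stat2 and Irf1. Ifi204, Igtp and Isg20 were added after their values were seen, as were Iigp1 and Ifih1 as means. Genes named from pathway lists are among the 3 with the smallest p, with Ifnar1, Ifnar2 and Ifnb1. Markers were named after their values were seen. The number of arrays limits the precision. Alternatives were array scaling, filters on dim probe sets, prior and weight settings (statmod 1.5.0), the replicate number as a block, and single arrays left out.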

Additional observations from a re-analysis of the deposited data

How the results depend on the processing

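No member was called higher in any of the 14 other settings. With only probe sets above the median level 1 member, Ifi47, was called lower, with only the brightest 25% 2 (Ifi47 and Ddx58), and with an intensity trend 1 (Ifi47), beside 0.325%, 4.74% and 0.504% of all probe sets tested there. The filters test fewer genes. The count lower at an unadjusted p under 0.05 was 6 in the brightest 25%, where only 13 members are left (13.9% of probe sets), and 5 to 12 with single arrays left out (3.19% to 6.24%). The count higher was 1 with array weights (6.24%) and 0 to 1 with single arrays left out (3.06% to 5.05%). Members wholly below the controls numbered 6 in the brightest 25% (17.9% of probe sets) and 11 to 17 with single arrays left out (11.9% to 16.7%). Those wholly above numbered 0 after median centring (4.51%), 1 above the median level (10.2%) and 0 in the brightest 25% (13.7%), and 2 to 3 with single arrays left out (11.2% to 13.7%). The median member was -0.21 above the median level and -0.21 to -0.11 with single arrays left out. Of 279 values of 21 named members in the other settings, 3 changed sign, all of Isg15, at -0.020 with array weights, -0.024 without control replicate 2 and -0.069 without JG-98 replicate 3, the range with single arrays left out being -0.069 to 0.14. Over all 39 members, 8 changed sign in at least 1 setting: Isg15, Ifi204, Ifit3, Ifitm3, Iigp1, Mx2, Oas1g and Xaf1. For 14 genes of other lists, single arrays were left out as an alternative chosen after seeing the data, and Ifnar2 turned positive in 3 of 6 cases (0.0084, 0.0052 and 0.0089; range -0.023 to 0.0089). The cause was not tested. With the replicate number as a block 0 members were called and 8 were lower at an unadjusted p under 0.05 (3.84%). Deviations of same-numbered arrays from their group means correlated at 0.095, -0.13 and 0.10, and those of differently numbered arrays at -0.23 to 0.20. With 3 arrays per group and no label for the number, these values cannot decide whether the numbers pair the arrays. Dim members cannot be separated from background.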
